A study of Homo sapiens with 12 samples.

Results

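The S phase and DNA replication genes described here are 44 named genes that carry a cell from S phase entry through origin licensing to DNA synthesis. They were taken as a list of names by function, drawn up with earlier results of these data known, and followed array by array. All 44 had a probe, among 20045 genes with a probe that names a single gene. The fits tested 42 of them in OE21, 43 in OE33 and 43 over both lines. GINS1, a subunit of the GINS complex, was detected on 0 arrays and has no value, and E2F8 was detected too seldom to be tested in OE21.

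OE21 is a line from an esophageal squamous cell carcinoma and OE33 a line from an esophageal adenocarcinoma. Per the labels' protocols, cells received a pool of 4 siRNA sequences against STAT3, a transcription factor of cytokine signalling, or a negative control siRNA, at 100 nM in 2 transfections, and gene regulation was quantified 72 h after the first. The 4 groups (OE21 control, OE21 STAT3 siRNA, OE33 control and OE33 STAT3 siRNA) held 3 Illumina BeadChip arrays each, from experiments that the design text calls biologically independent. The transfection reagent was DharmaFECT in OE33 and siPORT NeoFX in OE21, and in any contrast between the lines the reagent and the line cannot be told apart. Untreated cells are not analysed here. Levels are log2 intensities after normalisation, a difference of 1 log2 unit is a factor of 2, and a gene is said to be called when its limma adjusted p was under 0.05 over all genes tested.

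A dividing cell copies its genome in S phase. In G1 the origin recognition complex, CDC6 and CDT1 load the ring-shaped MCM helicase onto DNA; kinases, CDC45 and GINS then switch the helicase on, and the polymerases follow behind it on the sliding clamp PCNA. E2F transcription factors, released from the retinoblastoma proteins when cells commit to division, bind the promoters of many of these genes, so that their mRNAs are known to be made together late in G1.

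The binding word of E2F was common in the promoters of these genes. RefSeq promoters on GRCh38.p14, from 250 bases before to 50 after the start, were found for 39 of the 44 members, taking the table's first entry of each symbol. The E2F core words TTCCCGC and TTCGCGC and TTGCCGC and TTGGCGC, searched on both strands, stood in 31 of the 39 (79.5%), against 13.1% of all 27305 promoters of the same length, 41.3% of 46 promoters of other replication genes and 30.8% of 39 of mitosis genes. CCAAT, the word of the factor NF-Y, stood in 56.4% of the members' promoters against 35.7% of all. The STAT palindrome TTCNNNGAA stood in 3 of the 39 (7.69%) against 7.88% of all. These are matches of letters, not measured sites. The 6 stretches below belong to the members with the smallest p between the control cells of the lines that had an E2F word before the start. Each gives the 100 bases before the start on the gene's own strand, with the E2F words in capitals; GCGGGAA is TTCCCGC read on the other strand. They lie at chr1:23531234-23531333 (E2F2, minus strand), chr3:186806483-186806582 (RFC4, minus strand), chr13:33818049-33818148 (RFC3, plus strand), chr16:88803689-88803788 (CDT1, plus strand), chr18:657553-657652 (TYMS, plus strand) and chr6:52284743-52284842 (MCM3, minus strand).
E2F2: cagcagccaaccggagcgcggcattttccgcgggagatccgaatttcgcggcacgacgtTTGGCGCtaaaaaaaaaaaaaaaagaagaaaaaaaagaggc
RFC4: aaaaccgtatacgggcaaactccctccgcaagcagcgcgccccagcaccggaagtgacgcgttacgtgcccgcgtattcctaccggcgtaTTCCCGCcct
RFC3: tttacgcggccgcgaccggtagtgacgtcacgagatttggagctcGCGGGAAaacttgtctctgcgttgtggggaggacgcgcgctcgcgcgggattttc
CDT1: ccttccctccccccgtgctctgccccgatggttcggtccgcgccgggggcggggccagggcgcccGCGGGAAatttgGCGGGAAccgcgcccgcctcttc
TYMS: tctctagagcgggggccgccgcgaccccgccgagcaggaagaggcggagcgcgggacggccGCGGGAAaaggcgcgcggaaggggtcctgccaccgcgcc
MCM3: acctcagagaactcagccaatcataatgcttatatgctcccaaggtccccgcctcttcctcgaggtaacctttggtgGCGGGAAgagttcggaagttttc

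The printed members were picked for holding the word, and they differed in opposite directions between the lines: E2F2, RFC4, CDT1 and TYMS were lower in OE33 control cells and RFC3 and MCM3 higher. Over all members with a promoter, the median of OE33 minus OE21 in control cells was -0.20 with the word and -0.39 without it. In siRNA cells these medians were 0.09 and -0.11. Members with and without the word had nearly the same median siRNA difference, -0.23 over 30 members and -0.25 over 8 in OE21, and 0.08 and 0.06 in OE33.

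The number of detected probes ranged over the arrays from 18034 to 19149, or 38.1% to 40.5%, and arrays correlated across probes at 0.974 to 0.988 within a line. Squamous markers went mostly with OE21, and columnar markers less clearly with OE33. Of 8 squamous markers with a probe, 8 were detected on all 6 OE21 arrays and 2, KRT13 and TRIM29, on all 6 OE33 arrays. TRIM29 was higher in OE33 than in OE21 control cells (8.45 against 7.71). Of 11 columnar markers 5 were detected on all OE33 and 3 on all OE21 arrays. KRT8 and CDX2 were detected on all OE33 and 0 OE21 arrays, KRT18, KRT19 and AGR2 on all arrays of both lines, while TFF3, VIL1, CDH17, KRT20 and CDX1 were detected on 0 arrays of either line. The leukocyte markers PTPRC, CD3D and CD3E were detected on 0 arrays, and CD14 and CD68 on all. The endothelial marker VWF was detected on all OE21 and 0 OE33 arrays, and PECAM1, CDH5 and KDR on 0 arrays. The fibroblast marker COL1A2 was detected on 3 OE21 control, 2 OE21 siRNA and 2 OE33 siRNA arrays. COL1A1 and DCN were detected on some arrays, and COL3A1, LUM and PDGFRB on 0. OE33 control 2 stood apart from the other OE33 arrays, with 32.3% of genes at their lowest and 34.1% at their highest there.

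STAT3 itself was 9.23, 8.90 and 9.24 on the OE21 control arrays against 6.76, 6.77 and 7.47 with the siRNA, which leaves 22.9% of the control level (95% interval 15.7% to 33.5%). In OE33 it was 9.04, 10.26 and 9.36 on the control arrays and 9.10, 8.87 and 9.05 on the siRNA arrays, 68.5% of control (42.1% to 111%), with overlapping groups. The OE21 groups did not overlap, and the unadjusted limma p of STAT3 there, 4.27e-05, was the smallest of all 11179 genes tested. In OE33 it was 0.108. The limma adjusted p was 0.278 in OE21 and 0.991 in OE33, so the target was called in neither line and the OE33 arrays show no clear loss of it. Without OE33 control 2 the OE33 difference was -0.19 (SE 0.14).

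In OE21, no replication gene was called after the STAT3 siRNA, although nearly all of them lay slightly below the control mean. Of 42 members tested 40 lay below 0, with a median log2 difference of -0.24 and a range from -0.61 for CDC6 to 0.09 for ORC6. Over all 11179 genes tested the median was 0.00 and 50.5% lay below 0. Limma called 0 members and 0% of all genes. At an unadjusted p under 0.05 stood 2 members, E2F1 and CDC6, 4.76% of those tested against 11.3% of all genes. The siRNA arrays lay wholly below the control arrays for 3 members, E2F1, CDC6 and RFC5 (7.14%, against 8.94% of all genes), and wholly above them for 0 (7.95% of all genes). These shares lay under those of all genes, and the members' differences were small and mostly of the same sign.

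E2F1, an activator of the S phase programme, was 6.01, 6.15 and 6.37 on the OE21 control arrays and 5.69, 5.27 and 5.94 after the siRNA. Its log2 difference was -0.54 (SE 0.21, limma adjusted p = 0.402), which is 68.6% of the control level. The highest siRNA array lay just under the lowest control array. CDC6, a loader of the MCM helicase, was 6.04, 5.73 and 5.88 on the control arrays and 5.31, 4.77 and 5.73 on the siRNA arrays. Its difference of -0.61 (SE 0.25, limma adjusted p = 0.433) was the lowest of all members, and siRNA 3 and control 2 were equal to 2 decimals. POLA1, the catalytic subunit of the polymerase that makes the primers, was 7.44, 8.04 and 8.0 on the control arrays and 7.25, 7.28 and 7.58 after the siRNA, a difference of -0.46 (SE 0.20, limma adjusted p = 0.462). Its groups overlapped, since siRNA 3 lay above control 1. The other POLA1 probe, detected on 4 arrays, had the opposite sign, at 0.34. RFC5, a subunit of the clamp loader, went from 10.30 ± 0.09 (SD, n = 3) to 10.03 ± 0.04 (SD, n = 3), the smallest spread within groups of these members, with limma adjusted p = 0.472.

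**Figure D1:**
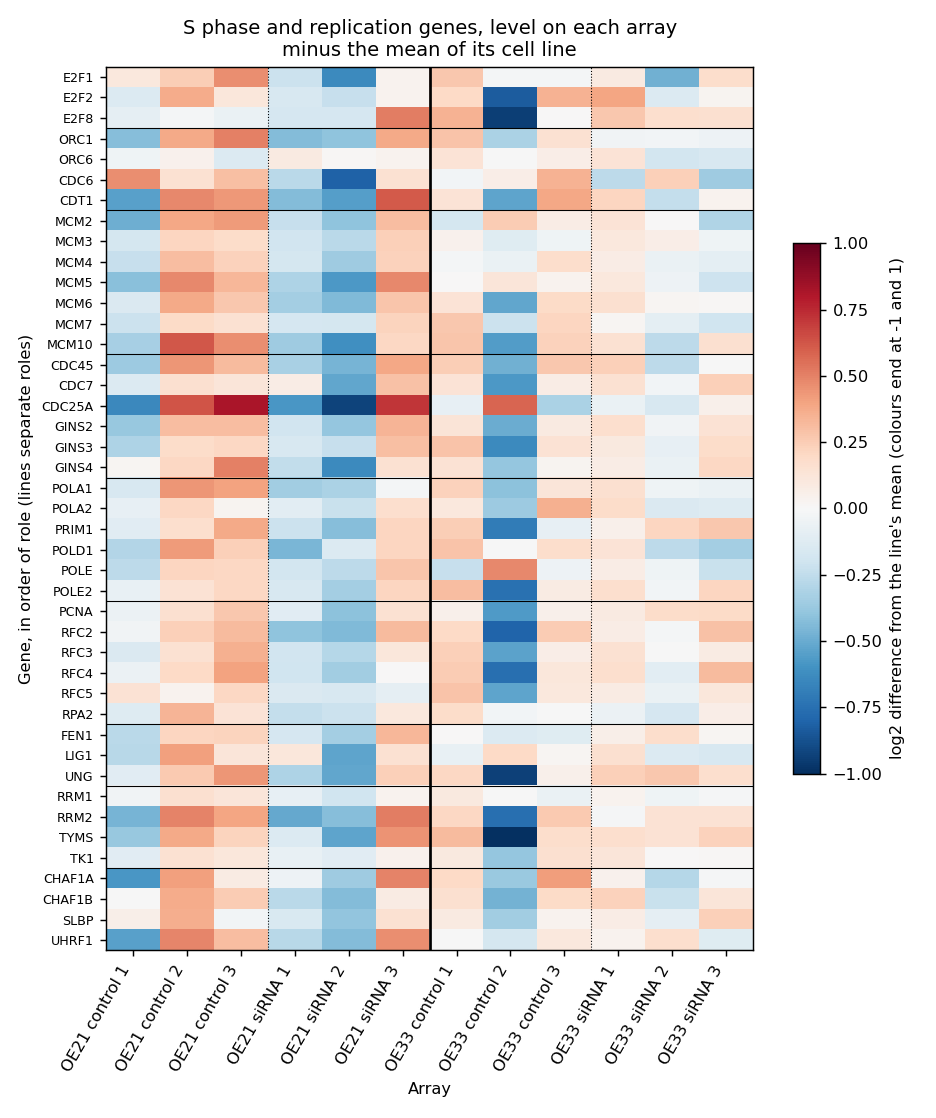
Level of each tested replication gene on each array minus its mean over the 6 arrays of the same line (log2 units, red higher, blue lower), genes in order of role. In OE21 the columns control 1, siRNA 1 and siRNA 2 are mostly blue and control 2, control 3 and siRNA 3 mostly red, and in OE33 control 2 is mostly blue, with MCM2, MCM5, CDC25A, POLE and LIG1 red.

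The replication genes moved together from array to array in OE21, and the order of the arrays did not follow the siRNA label. Relative to the 6 arrays of the line, the members' mean (log2 units) was -0.20, 0.29 and 0.26 on control 1, 2 and 3 and -0.22, -0.39 and 0.25 on siRNA 1, 2 and 3. Control 1 thus lay with siRNA 1 and siRNA 2, and siRNA 3 with control 2 and control 3. For 37 of 42 members (88.1%) the 3 lowest arrays were control 1, siRNA 1 and siRNA 2, against 18.8% of all genes tested and 16 of 46 mitosis genes; this ordering was picked after the values were seen. The other 5 members were E2F1, ORC6, CDC6, RFC5 and SLBP. The lowest array was siRNA 2 for 31 members, and for 17.7% of all genes.

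Over the 6 OE21 arrays the members spanned a median of 0.79 log2 units (0.68 for all genes), and the median size of their siRNA difference was 0.24 (0.19 for all genes). CDC25A, the phosphatase that activates the S phase kinase CDK2, spanned the most, from 7.38 on siRNA 2 to 9.12 on control 3. RRM2, the S phase subunit of ribonucleotide reductase, was 7.63, 8.59 and 8.49 on the control arrays and 7.58, 7.67 and 8.61 after the siRNA. MCM2, a helicase subunit, was 9.10, 9.98 and 10.02 on the control arrays and 9.36, 9.19 and 9.90 after the siRNA. TYMS, which makes thymidylate, was 10.26, 11.02 and 10.86 on the control arrays and 10.50, 10.11 and 11.09 after the siRNA. In each of these 3 genes control 1 was the lowest control array and siRNA 3 the highest siRNA array, above control 1. For MCM2 control 1 lay below every siRNA array, and for RRM2 and TYMS siRNA 3 lay above every control array. The limma adjusted p was 0.799 for RRM2, 0.818 for MCM2 and 0.875 for TYMS. Leaving out siRNA 2 moved the members' median to -0.10, and leaving out siRNA 3 moved it to -0.41. The mitosis genes' mean on the same arrays was 0.09, 0.13 and 0.27 in control cells and -0.19, -0.26 and -0.04 after the siRNA. All 3 siRNA arrays of that list lay below its control arrays, which was not so for the replication genes, and the difference between the lists was not tested.

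In OE33, no replication gene was called either, and the members did not lean one way. Of 43 members tested 26 lay above 0, with a median log2 difference of 0.08 and a range from -0.31 for POLD1 to 0.45 for UNG, and the median of all 10634 genes was -0.01. Limma called 0 members and 0% of all genes, and 0 members had an unadjusted p under 0.05, against 2.75% of all genes. The siRNA arrays lay wholly above the control arrays for 2 members, PCNA and FEN1 (4.65%, against 3.53% of all genes), and wholly below them for 0 (4.19% of all genes). The sign of the median rested on OE33 control 2: without that array it was -0.09, with 33 of 43 members below 0.

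PCNA, the sliding clamp, was 12.24, 11.62 and 12.24 on the OE33 control arrays and 12.28, 12.37 and 12.38 after the siRNA. The log2 difference of 0.31 (SE 0.19, limma adjusted p = 0.991) was 0.10 without control 2, the low array. UNG, which removes uracil from DNA, was 10.62, 9.48 and 10.46 on the control arrays and 10.65, 10.68 and 10.58 after the siRNA, a difference of 0.45 (SE 0.29, limma adjusted p = 0.991) that was also 0.10 without control 2. Here control 2 lay about 1 log2 unit under every other array of the line. POLD1, the catalytic subunit of the lagging-strand polymerase, was 7.47, 7.18 and 7.36 on the control arrays and 7.32, 6.92 and 6.84 after the siRNA, a difference of -0.31 (SE 0.17, limma adjusted p = 0.991) with overlapping groups. Its difference was -0.39 (SE 0.17) without control 2. TYMS showed the widest span of any member in this line, with 10.22, 8.87 and 10.08 on the control arrays against 10.07, 10.05 and 10.13 after the siRNA.

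OE33 control 2 was the lowest array for 31 of 43 members, and relative to the 6 arrays the members' mean there was -0.35. On the other 5 arrays that mean was between -0.05 and 0.14. Control 2 was at the same time the highest array for MCM2, MCM5, CDC25A, POLE and LIG1, so the members did not move as a block on it. RRM2 was 7.92, 6.96 and 7.97 on the OE33 control arrays and 7.70, 7.86 and 7.86 after the siRNA, with control 2 again the low one. MCM2 was 9.55, 9.98 and 9.80 on the control arrays and 9.86, 9.73 and 9.42 after the siRNA. The mitosis genes' mean lay at -0.43 on control 2.

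**Figure D2:**
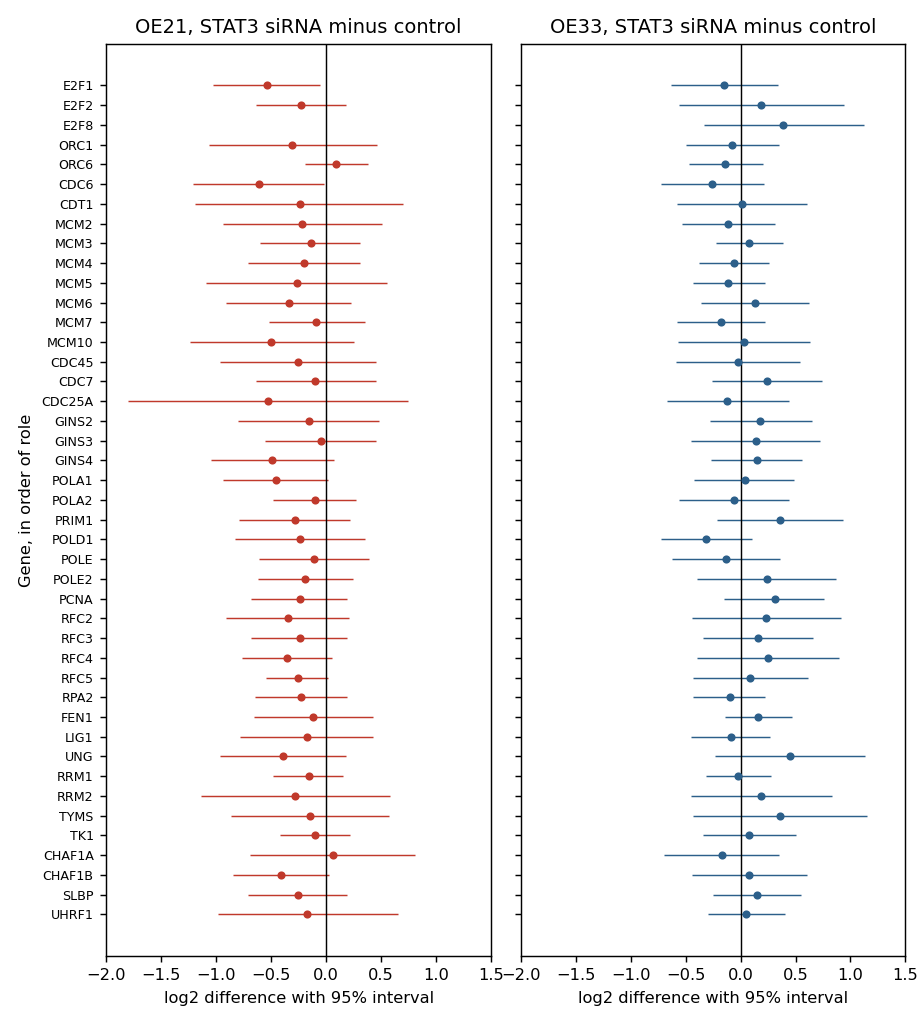
Log2 difference of STAT3 siRNA minus control cells for each replication gene (points, with 95% intervals), in OE21 on the left and OE33 on the right, genes in order of role. In OE21 40 of 42 points lie left of 0, and the intervals of E2F1 and CDC6 end below it at -0.06 and -0.02; in OE33 26 of 43 points lie right of 0 and every interval spans it. E2F8 has no point in OE21.

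Tested directly, the siRNA difference was not shown to differ between the lines for any replication gene. The siRNA effect in OE33 minus that in OE21 was above 0 for 38 of 43 members, with a median of 0.34, against a median of -0.01 over 12322 genes, of which 48.9% lay above 0. Limma called 0 members and 0% of all genes, and 0 members had an unadjusted p under 0.05, against 6.73% of all genes. The smallest p-values belonged to UNG (0.84, SE 0.41), GINS4 (0.63, SE 0.31) and PCNA (0.55, SE 0.28), each with limma adjusted p = 0.761. GINS4, a subunit of the helicase activator GINS, was 7.19, 7.37 and 7.67 on the OE21 control arrays and 6.92, 6.53 and 7.32 after the siRNA. In OE33 GINS4 was 7.61, 7.08 and 7.49 on the control arrays and 7.54, 7.40 and 7.67 after the siRNA, so the groups overlapped in both lines. In OE21 UNG was 10.10, 10.47 and 10.65 on the control arrays and 9.90, 9.69 and 10.45 after the siRNA. The other UNG probe, detected on 3 arrays, gave siRNA differences of 0.33 in OE33 and 0.02 in OE21. PCNA there was 11.67, 11.89 and 12 on the control arrays and 11.62, 11.32 and 11.88 after the siRNA. This contrast uses the same arrays as the comparisons within the lines. Its median was 0.15 without OE33 control 2 and 0.14 without OE21 siRNA 2.

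Between the cell lines, 15 of 43 replication genes were called in control cells and 15 in STAT3 siRNA cells, in both directions each time.
In control cells 5 members were higher in OE33 (11.6%, against 25.0% of all genes) and 10 lower (23.3%, against 24.2% of all genes), with a median log2 difference of -0.18. In siRNA cells 10 were higher (23.3%, against 25.6% of all genes) and 5 lower (11.6%, against 25.2% of all genes), with a median of 0.06. These 2 contrasts share no array, but they come from the same fit with a common spread per gene, so their calls are not independent. E2F1, E2F8, MCM3, RFC3 and RRM1 were higher in OE33 in both, and E2F2, MCM4, GINS3, POLD1 and TK1 lower in both. That makes 10 of 43 members (23.3%) called the same way each time, against 40.7% of all genes, and 23 members were called in neither contrast. The members' share was thus below that of all genes, a difference that was not tested. MCM4 and TK1 were called in both contrasts under each of the 20 alternative settings tried. So was E2F8, but it passed the detection filter through its OE33 arrays. It was detected on 0 of 3 OE21 control and 1 of 3 OE21 siRNA arrays, so its calls rest on OE21 readings mostly under detection. Of the 15 calls in control cells 8 were lost in some of these settings, E2F1 in 11, RRM1 in 9, POLD1 in 8, TYMS in 4, CDT1, MCM3 and RFC3 in 3 each and RPA2 in 2. Of the 15 in siRNA cells 5 were lost in some, GINS4 and POLD1 in 4 each, E2F2 and GINS3 in 3 each and PCNA in 1.

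**Figure D3:**
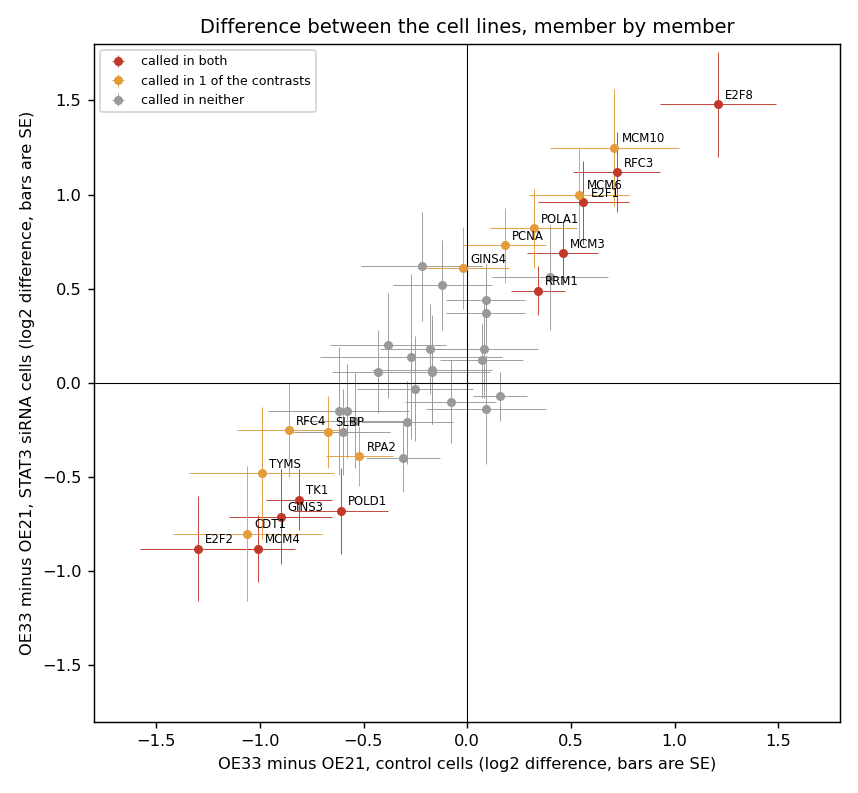
OE33 minus OE21 for each of 43 replication genes, in control cells (horizontal axis) and in STAT3 siRNA cells (vertical axis), as log2 differences with SE bars and coloured by whether limma called the gene. E2F8, RFC3, E2F1, MCM3 and RRM1 lie at the upper right and E2F2, MCM4, GINS3, TK1 and POLD1 at the lower left; E2F8 was detected on 0 OE21 control arrays, so its horizontal position is no measured difference.

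Among the transcription factors, E2F1 and E2F8 were higher in OE33 and E2F2 lower. E2F1 was 6.93, 6.64 and 6.64 on the OE33 control arrays and 6.75, 6.18 and 6.84 on its siRNA arrays. Its line difference was 0.56 (SE 0.22, limma adjusted p = 0.0491) in control cells and 0.96 (SE 0.22, limma adjusted p = 0.00301) in siRNA cells. E2F2, also an activator, was 9.13, 9.64 and 9.38 on the OE21 control arrays and 8.37, 7.34 and 8.52 on those of OE33. The siRNA arrays gave 9.11, 9.04 and 9.30 in OE21 and 8.57, 8.04 and 8.20 in OE33. The lines did not overlap in either treatment, with a difference of -1.30 (SE 0.28, limma adjusted p = 0.00208) in control and -0.88 (SE 0.28, limma adjusted p = 0.0192) in siRNA cells. E2F8, an atypical E2F that represses E2F target genes, was 6.20, 4.91 and 5.86 on the OE33 control arrays and 6.12, 6.02 and 6.01 on its siRNA arrays. In OE21 it read 4.42, 4.49 and 4.44 on the control arrays, where it was detected on 0 of 3, and 4.34, 4.34 and 5.02 on the siRNA arrays, where it was detected on 1 of 3. With the main processing, OE33 control cells were therefore at least 2.19-fold higher, taken against each array's lowest detected signal. The contrast with the undetected OE21 readings themselves was 1.21 (limma adjusted p = 0.00395). Over the 20 alternative settings that contrast ran from 0.40 to 1.58, called each time, so the bound is given for the main processing alone. For the siRNA cells the difference was 1.48 (SE 0.28, limma adjusted p = 0.000982). As 2 of the 3 OE21 siRNA arrays were under detection, its size depends on the background: it was 0.79 with offset 50, 0.53 without background correction and 0.51 in the authors' normalised values, called each time.

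Of the licensing factors CDT1 was called, and in control cells alone. CDT1, which brings the MCM helicase to the origin, was lower in OE33 control cells, 9.86 ± 0.47 (SD, n = 3) against 10.92 ± 0.57 (SD, n = 3) in OE21, a difference of -1.06 (limma adjusted p = 0.0269). In siRNA cells its difference of -0.80 was not called (limma adjusted p = 0.0789), nor was that of -0.80 between control cells without OE33 control 2 (limma adjusted p = 0.104). CDC6 was 5.55, 5.64 and 5.92 on the OE33 control arrays and 5.31, 5.81 and 5.22 on its siRNA arrays. It overlapped OE21 in both treatments, with differences of -0.18 and 0.18. ORC1, the large subunit of the origin recognition complex, differed by -0.17 and 0.06, and ORC6, its smallest, by 0.16 and -0.07, none of them called. The other detected ORC6 probe had the opposite sign in every comparison, at -0.42 and 0.24 here.

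The 6 subunits of the MCM ring, which work as a single complex, did not differ alike. MCM4 was 11.22, 11.76 and 11.68 on the OE21 control arrays and 10.49, 10.44 and 10.68 on those of OE33, a difference of -1.01 (SE 0.18, limma adjusted p = 0.00072). Its siRNA arrays gave 11.28, 11.10 and 11.68 in OE21 and 10.58, 10.44 and 10.41 in OE33, a difference of -0.88 (SE 0.18, limma adjusted p = 0.0019). Every OE33 array lay below every OE21 array, and the other MCM4 probe gave -1.01 in both treatments. MCM3 was higher in OE33, by 0.46 (limma adjusted p = 0.0356) in control and 0.69 (limma adjusted p = 0.00423) in siRNA cells. MCM6 was higher by 1.00 (SE 0.24, limma adjusted p = 0.00397) in siRNA cells, while its 0.54 in control cells was not called (limma adjusted p = 0.0802). It was called there at 0.76 without OE33 control 2 (limma adjusted p = 0.0156). MCM2 differed by 0.08 and 0.18, MCM5 by 0.40 and 0.56, and MCM7 by -0.31 and -0.40, none of them called. The other detected MCM7 probes gave -1.43 and -0.56 between control cells and -0.94 and 0.06 between siRNA cells, so the size for MCM7 depends on the probe and, in siRNA cells, so does the sign. MCM10, which binds the helicase when it starts to unwind, was 9.19 ± 0.24 (SD, n = 3) in OE33 and 7.94 ± 0.42 (SD, n = 3) in OE21 siRNA cells, higher by 1.25 (limma adjusted p = 0.00497). In control cells the 0.71 of MCM10 was not called (limma adjusted p = 0.0725).

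Of the helicase activators, GINS3 was lower in OE33 in both treatments, by -0.90 (SE 0.25, limma adjusted p = 0.00976) and -0.71 (SE 0.25, limma adjusted p = 0.0307). The siRNA call of GINS3 was lost without OE21 siRNA 3 (-0.55, limma adjusted p = 0.108), OE33 siRNA 1 (-0.73) or OE33 siRNA 2 (-0.63). GINS4, a subunit of the same complex, was higher in OE33 siRNA cells by 0.61 (limma adjusted p = 0.0336) and stood at -0.02 in control cells. That call was lost without OE21 siRNA 1 (0.61), OE21 siRNA 2 (0.42, limma adjusted p = 0.144), OE33 siRNA 1 (0.61) or OE33 siRNA 3 (0.55). GINS2 of the same complex differed by -0.54 and -0.20, CDC45 by -0.17 and 0.07, the kinase CDC7 by -0.60 and -0.26 and CDC25A by -0.27 and 0.14. None of these was called, and CDC7 in control cells missed the threshold narrowly, with limma adjusted p = 0.0502.

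Among the polymerases, POLD1 was lower in OE33 in both treatments and POLA1 higher in siRNA cells. POLD1 was 7.53, 8.25 and 8.06 on the OE21 control arrays and 7.37, 7.69 and 8.04 on its siRNA arrays, which lay above the OE33 arrays of the same treatment without overlap. The differences were -0.61 (SE 0.23, limma adjusted p = 0.042) and -0.68 (SE 0.23, limma adjusted p = 0.0253), the former lost without OE33 control 2 (limma adjusted p = 0.109). POLA1 was 8.40, 7.76 and 8.29 on the OE33 control arrays and 8.33, 8.12 and 8.10 on its siRNA arrays. Its line difference was 0.82 (SE 0.21, limma adjusted p = 0.00628) in siRNA cells, with no overlap, and 0.32 (limma adjusted p = 0.228) in control cells. The other POLA1 probe, detected on 4 arrays, gave 0.38 in siRNA cells and 0.24 in control cells. Uncalled in both contrasts were POLA2, its accessory subunit, at 0.07 and 0.12, the primase PRIM1 at -0.12 and 0.52, the leading-strand polymerase POLE at -0.08 and -0.10 and its subunit POLE2 at -0.58 and -0.15.

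Of the clamp loader, RFC3 was higher and RFC4 lower in OE33 control cells. RFC3 was 8.53, 8.83 and 9.03 on the OE21 control arrays and 9.83, 9.06 and 9.66 on those of OE33, a difference of 0.72 (SE 0.21, limma adjusted p = 0.0131). Its siRNA arrays gave 8.48, 8.39 and 8.79 in OE21 and 9.75, 9.59 and 9.68 in OE33, a difference of 1.12 (SE 0.21) with the smallest p of all members there (limma adjusted p = 0.000802). All OE33 arrays lay above all OE21 arrays, but the other RFC3 probes gave 0.61 and -0.76 between control cells. Between siRNA cells these 2 probes gave 1.12 and 0.00, so the size for RFC3 depends on the probe there too. With the mean over probes the control difference was not called, at 0.19, while the siRNA difference still was. RFC4, another loader subunit, was lower in OE33 control cells, by -0.86 (SE 0.25, limma adjusted p = 0.0122), on both of its probes. In siRNA cells RFC4 differed by -0.25 and was not called.
PCNA was higher in OE33 siRNA cells by 0.73 (SE 0.20, limma adjusted p = 0.00836) and stood at 0.18 in control cells (limma adjusted p = 0.473), where the groups overlapped through OE33 control 2. The other detected PCNA probe gave 0.30 between siRNA cells and 0.02 between control cells. With the mean over probes the siRNA call of PCNA was lost (limma adjusted p = 0.0997). RPA2, of the complex that coats single-stranded DNA, was lower in OE33 control cells by -0.52 (limma adjusted p = 0.0181) and not called at -0.39 in siRNA cells (limma adjusted p = 0.0605). RFC2 at -0.38 and 0.20 and RFC5 at 0.09 and 0.44 were called in neither. The enzymes that finish Okazaki fragments were not called either, FEN1 at 0.09 and 0.37 and LIG1 at -0.29 and -0.21, nor was UNG at -0.22 and 0.62. The other UNG probe gave -0.35 and -0.05.

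The enzymes of nucleotide supply included the thymidine enzymes TK1 and TYMS, lower in OE33. TK1, which salvages thymidine, was 10.92, 11.19 and 11.15 on the OE21 control arrays and 10.42, 9.93 and 10.48 on those of OE33, a difference of -0.81 (SE 0.16, limma adjusted p = 0.00138). On the siRNA arrays TK1 was 10.96, 10.92 and 11.08 in OE21 and 10.44, 10.32 and 10.33 in OE33, a difference of -0.62 (SE 0.16, limma adjusted p = 0.00679). No OE33 array reached any OE21 array. TYMS differed by -0.99 (SE 0.35, limma adjusted p = 0.032) in control cells but by -0.57 without OE33 control 2 (limma adjusted p = 0.117), and by -0.48 in siRNA cells (limma adjusted p = 0.27). The subunits of ribonucleotide reductase differed in sign. RRM1, the large subunit, was higher in OE33 by 0.34 (SE 0.13, limma adjusted p = 0.04) and 0.49 (SE 0.13, limma adjusted p = 0.00655). Its control call was lost without any 1 of 9 arrays (limma adjusted p up to 0.12), those other than OE33 control 2, OE21 siRNA 2 and OE21 siRNA 3. RRM2 was at -0.62 and -0.15 and was not called.

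Of the genes that package and mark the new DNA, SLBP was called. SLBP, which binds the stem-loop of histone mRNAs, was lower in OE33 control cells, 9.91 ± 0.24 (SD, n = 3) against 10.59 ± 0.21 (SD, n = 3), a difference of -0.67 (limma adjusted p = 0.0102), and at -0.26 in siRNA cells it was not. The chromatin assembly subunits CHAF1A (0.09 and -0.14) and CHAF1B (-0.43 and 0.06) were not called. UHRF1, which carries DNA methylation to the new strand, was at -0.25 and -0.03, also not called.

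OE33 control 2 also bore on the contrast between control cells. Without it 8 members were called higher and 7 lower, with a median of -0.04. E2F1, CDT1, TYMS and POLD1 were no longer called, and MCM6, MCM10, POLA1 and RFC5 were called higher.

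**Figure D4:**
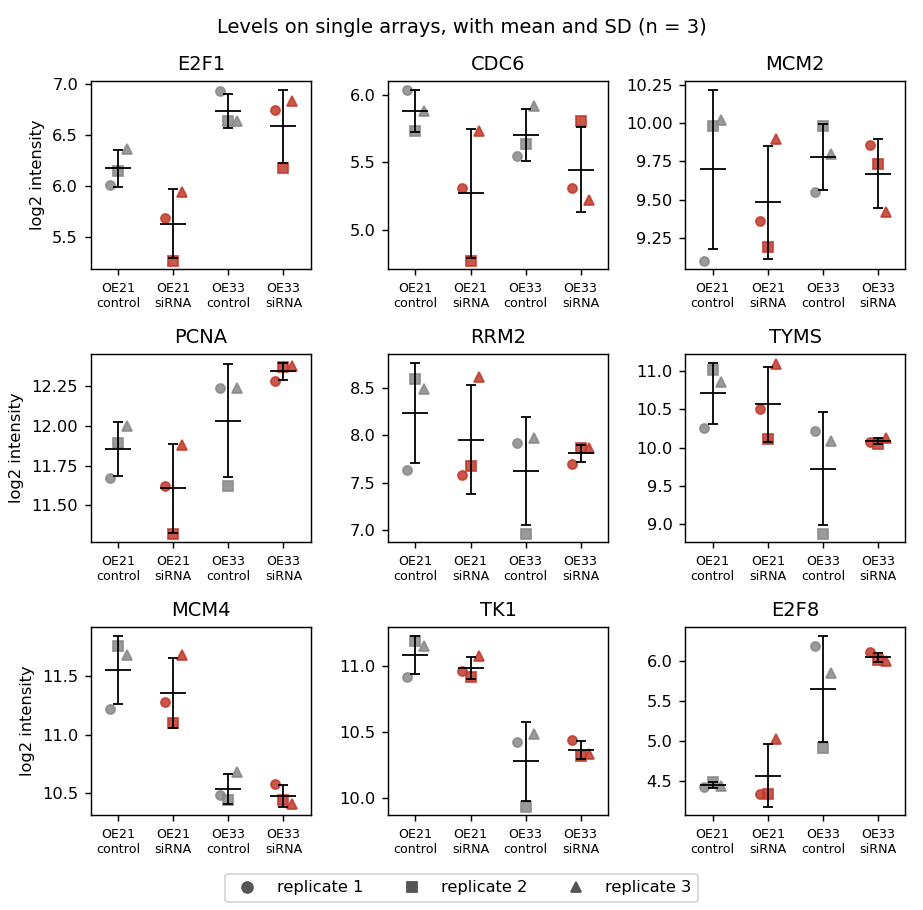
Log2 intensity of 9 replication genes on each array (symbols mark the replicate number, bars the mean and SD of 3 arrays), control in grey and STAT3 siRNA in red. MCM4 and TK1 are lower on every OE33 array than on any OE21 array, while for MCM2, RRM2 and TYMS the siRNA and control arrays overlap in both lines; the axes do not start at 0.

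Of 57 other replication genes taken by function, 50 were tested over both lines, and they too split between the lines: 11 were higher (22%) and 17 lower (34%) in OE33 control cells, and 14 higher (28%) and 6 lower (12%) in siRNA cells. The shares of all genes were the 25.0% and 24.2%, and 25.6% and 25.2%, given above. ORC2, of the origin recognition complex, was higher in OE33 by 1.28 (SE 0.12, limma adjusted p = 4.71e-06) in control and 1.33 (SE 0.12) in siRNA cells. NASP, a histone chaperone, was lower by -1.98 (SE 0.21) and -2.13 (SE 0.21), and RFC1, the large subunit of the clamp loader, by -1.11 (SE 0.12) and -1.20 (SE 0.12). POLD2, which partners POLD1, was higher by 1.16 (SE 0.14) and 1.32 (SE 0.14), so the polymerase delta subunits POLD1 and POLD2 differed in opposite directions. TIMELESS, of the fork protection complex, was lower in OE33 control cells by -0.90 (SE 0.15), and PRIM2, the large primase subunit, was higher in siRNA cells by 1.15 (SE 0.17). All of these had a limma adjusted p of at most 0.000394.

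After the siRNA, 0 of these other genes were called by limma in either line, and at an unadjusted p under 0.05 stood 3 of 49 in OE21 and 1 of 50 in OE33. The smallest p-values in OE21 belonged to POLE3, a small subunit of polymerase epsilon (-0.73, SE 0.18, limma adjusted p = 0.301), POLD2 (-0.45, SE 0.14), DSCC1 (-0.64, SE 0.25), RNASEH2A (-0.30, SE 0.13) and RNASEH2C (-0.30, SE 0.13). In OE33 they belonged to PRIM2 (0.48, SE 0.18), NPAT, an activator of histone genes (-0.51, SE 0.22), RBL2, a retinoblastoma family protein (0.29, SE 0.14), WDHD1 (0.54, SE 0.27) and DBF4, the partner of CDC7 (0.39, SE 0.20), each with limma adjusted p = 0.991. For the difference between the lines' siRNA effects the smallest p-values were those of PRIM2 (0.71, SE 0.24), POLE3 (0.59, SE 0.25), NPAT (-0.78, SE 0.33), DSCC1 (0.82, SE 0.36) and WDHD1 (0.71, SE 0.32), again with 0 called and limma adjusted p from 0.658 upwards.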

How the data were processed

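Per the file headers, the authors deposited linear, unnormalised probe intensity values, each with a detection p-value, whose method the sources used here do not give. A second table of theirs, of normalised intensity values, was an alternative. Of 47323 probes 4 lacked a value and were left out, and 30111 carry 1 gene symbol in the platform annotation. The neqc function (limma 3.58.1, R 4.3.3, offset 16) background-corrected and quantile-normalised the intensities of all 12 arrays. Probes with detection p under 0.01 on at least 3 arrays of a fit were tested, and the probe with the highest mean stood for a gene; 15 members had several detected probes. The siRNA comparisons used the 6 arrays of a line (4 residual degrees of freedom), the others all 12 (8), with lmFit and eBayes, two-sided, Benjamini-Hochberg over all genes. Where a group had a gene detected on 0 arrays, the fold was taken against each array's lowest detected signal, as a lower bound. With 3 arrays a group an exact permutation test cannot go below p = 0.1; the number of arrays sets the precision.

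The members and lists were chosen with earlier results of these data known. All members may be named; values on every array are given for 6 examples and for the 3 members with the smallest p in each comparison, and 5 other replication genes are named per comparison. In control and siRNA cells of OE33 the deviations of same-numbered arrays correlated across genes at r = 0.101, 0.340 and 0.135. Control 1 with siRNA 3 gave 0.196 and control 3 with siRNA 1 gave 0.121, and the other unlike-numbered values were negative. Only the arrays numbered 2 stood out, so this check does not show that the numbers pair the OE33 arrays. In OE21 same-numbered arrays gave 0.450, -0.399 and 0.502. Control 1 with siRNA 2 gave 0.651 and control 2 with siRNA 3 gave 0.465, and the other unlike-numbered values were negative. The check therefore does not show that the numbers pair the OE21 arrays either. On simulated data with known changes of 1 and 2 log2 units, 44% and 86% were recovered in OE21, 56% and 92% in OE33 and 56% and 94% between the lines. In the OE21 data themselves 0 of 11179 genes were called, and STAT3 was not called at -2.12. The simulated recovery may thus overstate what the OE21 fit can detect. Alternatives were the offset, background, detection filter, probe rule, authors' values, array weights, replicate block, joint fit and leaving out each array.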

Additional observations from a re-analysis of the deposited data

How the results depend on the processing

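The counts of 0 members called in both siRNA comparisons and in their difference held under every alternative run. No called member changed sign. The replicate block gave 0 called members in the siRNA comparisons, with medians of -0.24 in OE21 and 0.08 in OE33. For the difference between the siRNA effects it gave 0 called members and a median of 0.34. As a random block it gave 5 higher and 10 lower in control cells, and 10 higher and 5 lower in siRNA cells. It thus changed no count of called members, though it moved counts at an unadjusted p under 0.05. The array numbers were not shown to pair the arrays in either line. Leaving out single arrays gave 1 to 8 members higher and 6 to 12 lower between control cells, with medians from -0.41 to -0.04, and 9 to 14 higher and 2 to 7 lower between siRNA cells, with medians from -0.09 to 0.25. Between control cells 1 was higher without OE21 control 1 or OE33 control 1, 2 without OE33 control 3, 3 without OE21 siRNA 1, OE33 siRNA 1 or OE33 siRNA 3, and 8 without OE33 control 2; 6 were lower without OE21 control 2. Between siRNA cells 2 were lower without OE21 siRNA 3 or OE33 siRNA 2 and 3 without OE33 siRNA 3. In siRNA cells array weights gave 16 higher and 8 lower, and a threshold of 0.1 gave 8 lower. Array weights also moved the siRNA medians, to -0.39 in OE21 and -0.08 in OE33. With array weights 23 of 42 OE21 members (54.8%, against 31.8% of all genes) had an unadjusted p under 0.05. In OE33 it was 5 of 43 members (11.6%, against 9.95%). For the difference between the siRNA effects it was 10 of 43 (23.3%, against 23.0%). Limma called 270, 0 and 229 genes in all. The weights are estimated from these same arrays. In OE21 they were lowest for control 1 (0.468) and siRNA 3 (0.360), the arrays whose members' mean lay with the other group. The OE21 share is therefore not separate support for a lower level.

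Uncalled differences of example members changed sign as follows. In OE21 TYMS was 0.08 without siRNA 2. In OE33 RRM2 was -0.12 with array weights and -0.14 without control 2, where TYMS was -0.07, E2F1 was 0.06 without siRNA 2 and MCM2 0.02 without siRNA 3. Between control cells MCM2 was -0.11 with array weights, -0.22 without OE21 control 1 and -0.03 without OE33 control 2. Between siRNA cells RRM2 was 0.15 with array weights and 0.18 without OE21 siRNA 3, and CDC6 was -0.07 without OE21 siRNA 2. For the difference between the siRNA effects MCM2 was -0.03, -0.05 and -0.04 without OE21 control 2, control 3 and siRNA 2. Leaving out 1 array at a time gave ranges from -0.28 to 0.06 for E2F1, -0.14 to 0.37 for RRM2 and -0.07 to 0.61 for TYMS in OE33. The same ranges were -0.22 to 0.23 for MCM2 between control cells, -0.07 to 0.41 for CDC6 and -0.33 to 0.18 for RRM2 between siRNA cells, and -0.05 to 0.41 for MCM2 in the difference between the siRNA effects. The cause was not tested.

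With 3 arrays a group, changes under 1 log2 unit are often missed, and STAT3 was not called in OE21 at -2.12. The counts of 0 therefore do not show that replication genes kept their level. Signal over background limits E2F8, at or under detection in OE21, and GINS1. Cell number, cell cycle phase and protein were not measured.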
